A study of Mus musculus with 12 samples.

Results

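De novo lipogenesis, the making of fatty acids from carbohydrate, was followed at the level of mRNA in the liver of mice kept on 4 diets for 6 months. The genes were Srebf1, Fasn, Acaca, Acacb, Acly, Scd1, Elovl6, Me1, Thrsp and Pnpla3. They were chosen as the factor, the enzymes and the lipid-droplet and accessory proteins of the route, and every array feature whose accession belonged to 1 of them was used. In all, 17 of 39429 features stood for these 10 of 20882 named genes, and all 17 were well above background on all 12 arrays. The 12 arrays held liver RNA of female C57BL/6N mice, 3 per diet, 1 mouse per array. Ctrl mice had a normal formula diet with corn starch and sucrose as its carbohydrate, and RS mice the same diet with resveratrol added. For DJ mice the starch and sucrose gave way to rice of the variety Dongjin, and for DJ526 mice to rice of the line DJ526, which is Dongjin carrying a transferred peanut gene for stilbene synthase and making resveratrol in its grain. All mice were bought at 6 weeks of age and acclimated for 2 weeks before the diets began. Mice were housed several to a cage, and the cage of each is not given in the sources used here. The methods state that cages were allotted to the diets at random, and also that mice were divided at random after acclimation. With whole cages on a diet, cage and diet cannot be told apart. DJ526 therefore differed from DJ by resveratrol and by a transferred gene at the same time, and whether a mouse had fed before it was killed is not given in the sources used here.

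In a fed liver, glucose becomes citrate, the citrate lyase Acly turns citrate into acetyl-CoA, and the carboxylases Acaca and Acacb make malonyl-CoA from it. Fasn joins these units into palmitate with NADPH that Me1 helps to supply, Elovl6 lengthens palmitate, and Scd1 puts in a double bond. Srebf1 encodes SREBP1, the insulin-responsive factor that is held in a membrane and released by cleavage to act on these genes together with ChREBP and LXR, Thrsp is the small lipogenic protein Spot 14, and Pnpla3 is a lipid-droplet protein of the adiponutrin family.

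The promoters are shown because the genes turned out to move together. RefSeq windows of 250 bases before and 50 after a start (GRCm38.p6) were given for 9 of the 10 genes, 12 windows in all. Both strands were searched for the letters TCACNCCAC, a form of the sterol regulatory element, which 1.24% of 32851 promoters held and 0 of the 12 windows. The E box CACGTG was in 7.15% of all promoters and in 0 of the 12. The Y box CCAAT, bound by NF-Y, was in 37.4% of all promoters and in 8 of the 12, and the GC box GGGCGG in 35.7% and in 5 of the 12. Sites that differ from these letters, or lie outside the window, were not searched. In the 250 bases before a start printed here, 5′ to 3′ on the strand of the gene, capitals mark CCAAT on either strand. The first 4 lines are genes whose mRNA moved together between mice. The Srebf1 lines belong to the gene whose mRNA did not follow them closely over all 12 mice. All lines printed are among the 7 of the 12 windows that hold CCAAT in these 250 bases. Windows without CCAAT were those of Elovl6 and Acaca, which also moved together, 1 start of Me1 and the remaining start of Srebf1. The only window of Acaca (chr11:84195188-84195437) and that of Acacb lie inside the genes, which start at 84129635 and 114146321. The upstream ends of these genes were not among the windows, so that motifs there were not searched. In Acly the only match lay after the start. In the Fasn line 2 of 3 matches overlap and print as 1 run.
Fasn, chr11:120824548-120824797, minus strand: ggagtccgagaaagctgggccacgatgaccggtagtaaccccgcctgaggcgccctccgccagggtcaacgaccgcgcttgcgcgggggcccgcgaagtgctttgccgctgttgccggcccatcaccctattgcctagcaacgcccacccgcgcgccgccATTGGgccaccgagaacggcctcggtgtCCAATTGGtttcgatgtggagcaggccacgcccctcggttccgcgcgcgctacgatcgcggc
Acacb, chr5:114165268-114165517, plus strand: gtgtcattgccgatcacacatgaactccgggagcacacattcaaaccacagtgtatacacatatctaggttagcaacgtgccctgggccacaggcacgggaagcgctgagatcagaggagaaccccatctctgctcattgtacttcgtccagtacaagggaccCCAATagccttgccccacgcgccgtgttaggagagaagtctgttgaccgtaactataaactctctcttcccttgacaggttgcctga
Thrsp, chr7:97417551-97417800, minus strand: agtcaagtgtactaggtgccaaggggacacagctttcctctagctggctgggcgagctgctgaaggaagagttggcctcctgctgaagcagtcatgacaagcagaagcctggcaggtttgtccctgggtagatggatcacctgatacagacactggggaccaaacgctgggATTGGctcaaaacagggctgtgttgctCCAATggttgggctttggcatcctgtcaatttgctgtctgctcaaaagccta
Pnpla3, chr15:84167566-84167815, plus strand: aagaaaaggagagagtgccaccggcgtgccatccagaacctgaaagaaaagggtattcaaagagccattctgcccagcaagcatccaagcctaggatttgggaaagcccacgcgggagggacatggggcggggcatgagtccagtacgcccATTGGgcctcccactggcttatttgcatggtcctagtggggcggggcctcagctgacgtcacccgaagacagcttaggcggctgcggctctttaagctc
Srebf1, chr11:60222582-60222831, minus strand: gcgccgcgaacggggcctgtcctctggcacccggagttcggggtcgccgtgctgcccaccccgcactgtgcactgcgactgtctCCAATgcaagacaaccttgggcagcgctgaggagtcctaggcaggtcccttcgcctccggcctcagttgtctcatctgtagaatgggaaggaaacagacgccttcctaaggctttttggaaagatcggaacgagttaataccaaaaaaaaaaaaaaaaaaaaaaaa
Srebf1, another start, chr11:60210472-60210721, minus strand: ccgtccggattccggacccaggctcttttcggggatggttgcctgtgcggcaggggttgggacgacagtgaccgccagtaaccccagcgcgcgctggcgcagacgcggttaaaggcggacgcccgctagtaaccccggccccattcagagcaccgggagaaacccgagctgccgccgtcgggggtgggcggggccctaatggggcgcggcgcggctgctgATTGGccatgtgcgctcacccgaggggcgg

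Values are log2 of the array signal minus log2 of the 75th percentile of the same array, so that a difference of 1 is a change by a factor of 2, and the level of 1 gene cannot be set against that of another. Each gene was read by its brightest feature, and mice are named by diet and number, in the order 1, 2 and 3. Depth here means signal over background. Between 73.0% and 80.8% of spots on an array were well above background, none was saturated, and the 75th percentile of the signal ran from 902 to 1102. Hepatocyte markers (Alb, Apoa1, Ttr, Apob, Fga and Cps1) were all well above background, with a summed level of 10.1 to 10.4 on every array. The sum is carried mostly by Alb and Ttr, and Cps1 alone ran from 4.00 in RS 1 to 5.17 in DJ526 3.

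Fasn, the synthase itself (chr11:120805958-120825166, GRCm38.p6 as for all positions), read 2.02, 4.42 and 4.44 in Ctrl and 2.13, 3.18 and 3.94 in RS. In DJ it read 2.35, 3.73 and 2.89, and in DJ526 2.17, 3.95 and 3.05. One mouse in each diet, the one numbered 1, was low, and the 4 diets overlapped almost completely. The mean of Fasn was 3.63 ± 1.39 for Ctrl, 3.08 ± 0.91 for RS, 2.99 ± 0.70 for DJ and 3.06 ± 0.89 for DJ526 (SD, n = 3 each). Within Ctrl alone Fasn covered a 5.37-fold range, which was also its range over all 12 mice.

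Acly, at the head of the route (chr11:100476352-100528000), had the same shape. Its values were 5.53, 7.51 and 7.51 in Ctrl, 5.42, 6.47 and 7.32 in RS, 5.99, 7.10 and 6.35 in DJ and 5.99, 7.32 and 6.55 in DJ526. Acaca, the cytosolic carboxylase that commits carbon to fat (chr11:84129635-84401651), read 3.94, 5.94 and 5.79 in Ctrl, 3.75, 4.85 and 5.09 in RS, 4.13, 4.92 and 4.38 in DJ and 3.95, 5.21 and 4.42 in DJ526. Again mouse 1 was the lowest of each diet in both genes, and the lows of the 4 diets lay near each other while the highs were reached in Ctrl. Acacb, the mitochondrial carboxylase whose malonyl-CoA restrains fatty acid oxidation (chr5:114146321-114250761), read 3.83, 5.43 and 5.44 in Ctrl, 3.71, 4.81 and 5.42 in RS, 4.21, 5.14 and 4.94 in DJ and 4.47, 5.24 and 4.81 in DJ526. Its range narrowed from 3.05-fold in Ctrl and 3.27-fold in RS to 1.91-fold in DJ and 1.70-fold in DJ526, a difference in spread that was not tested.

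Elovl6, the elongase of palmitate (chr3:129532386-129638495), read 4.10, 6.38 and 6.43 in Ctrl, 3.48, 5.70 and 5.86 in RS, 4.27, 5.33 and 4.18 in DJ and 3.63, 5.82 and 4.45 in DJ526. Scd1, the desaturase (chr19:44394450-44407709), read 5.93, 7.99 and 7.90 in Ctrl, 5.10, 7.41 and 7.70 in RS, 6.99, 7.13 and 6.48 in DJ and 6.85, 7.88 and 7.39 in DJ526. For Scd1 the lowest values, 5.10 and 5.93, were those of RS 1 and Ctrl 1, and no mouse on rice was below 6.48, although the rest of the starch and sucrose mice lay as high as the rice mice or higher. Me1, the malic enzyme (chr9:86581363-86695914), read 4.02, 6.44 and 6.12 in Ctrl, 4.07, 5.50 and 5.74 in RS, 4.81, 5.48 and 4.72 in DJ and 4.70, 5.93 and 5.16 in DJ526. Me1 had its lowest values in the same mice as Scd1, Ctrl 1 and RS 1.

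Thrsp (chr7:97412933-97417550) read 6.69, 7.82 and 7.62 in Ctrl, 6.96, 7.30 and 7.69 in RS, 6.66, 7.72 and 7.30 in DJ and 6.29, 7.64 and 7.24 in DJ526. Mouse 1 was again the lowest of each diet, though DJ526 1 was the lowest of all, and the range over the 12 was smaller, 2.89-fold. Pnpla3 (chr15:84167776-84189521) read -0.86, 2.68 and 1.04 in Ctrl, -0.07, 0.77 and 1.88 in RS, 0.70, 2.07 and -0.21 in DJ and -0.61, 1.50 and 0.94 in DJ526, and its 11.6-fold range was the widest of the 10 genes. Srebf1 (chr11:60199084-60224186) read 2.03, 2.21 and 2.02 in Ctrl, 2.18, 1.29 and 2.17 in RS, 1.57, 2.41 and 1.93 in DJ and 1.24, 1.78 and 1.91 in DJ526. Srebf1 was the exception to the pattern, because the 3 Ctrl mice, which differed up to 11.6-fold in Pnpla3, lay within 1.14-fold in Srebf1, and in RS it was mouse 2 and not mouse 1 that was low. In DJ and DJ526 mouse 1 was the lowest for Srebf1 as well. Which of the Srebf1 transcripts its feature reads is not given in the files.

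**Figure D1:**
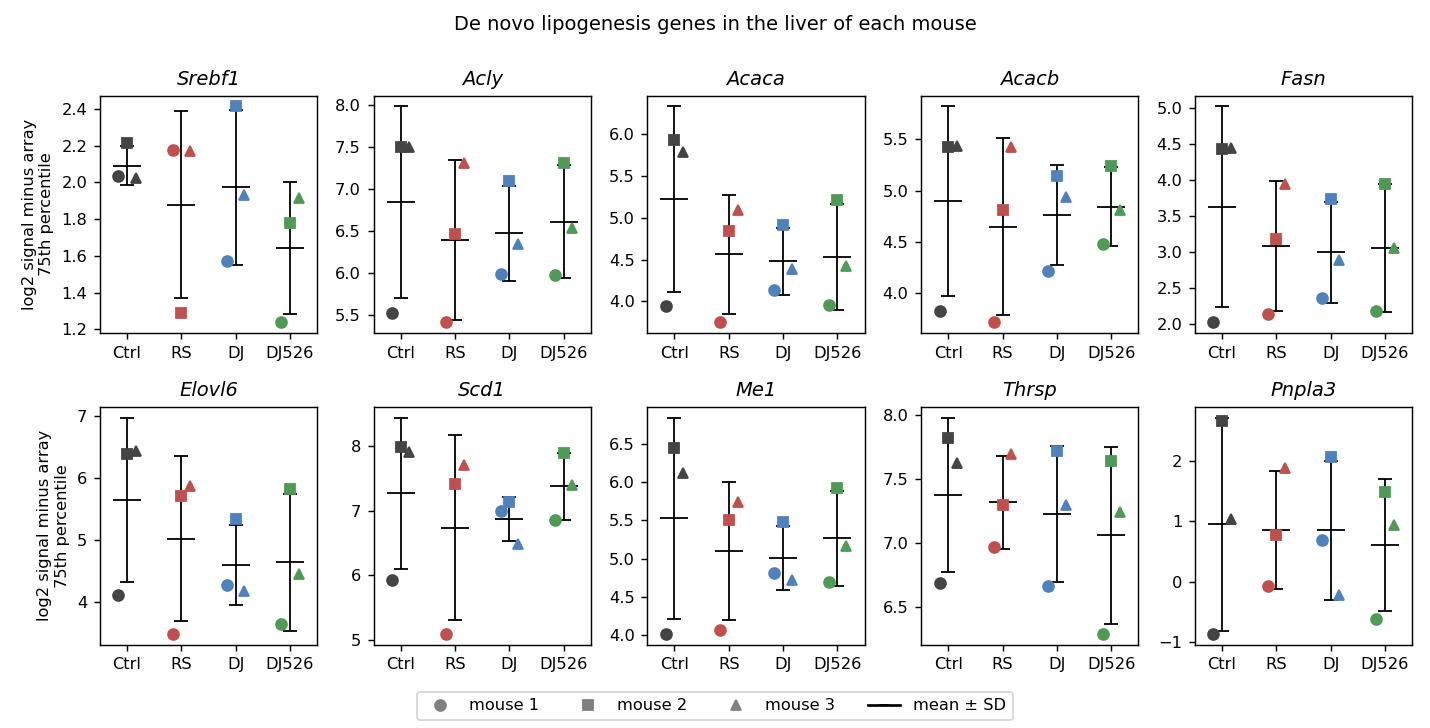
Each panel is 1 gene; points are single mice (circle, square and triangle for mouse 1, 2 and 3 of a diet), and bars give the mean ± SD of the 3 mice, on the log2 scale relative to the array's 75th percentile. The circles lie lowest in every diet for Acly, Acaca, Acacb, Fasn and Thrsp, and in Ctrl and DJ526 for 9 and 10 of the 10 genes. For Srebf1 the circle lies lowest in DJ and DJ526 but not in Ctrl and RS.

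No difference between diets was detected in these genes. By limma with Benjamini-Hochberg adjustment over 39429 features (threshold 0.05), 0 of the 10 genes were called in any of 8 comparisons, and in each of them 0 of the 10 had an unadjusted p under 0.05. Calls were rare over the whole array with all 12 mice. They made up 0% of features for RS against Ctrl, 0% for DJ against Ctrl and 0.00507% for DJ526 against Ctrl. For DJ526 against DJ they were 0.0101%, and for DJ526 against RS 0.00761%. Rice against starch and sucrose gave 0%, the diets with resveratrol against those without 0%, and the resveratrol effect on rice minus that on starch and sucrose 0%. The counts over the array depended on single mice, since 2, 4 and 3 features were called for DJ526 against Ctrl, DJ and RS with all mice and 166, 107 and 28 without RS 3, where 0 of the 10 genes were called all the same. At an unadjusted p under 0.05 4.60% to 10.8% of all features passed in the 8 comparisons. The lowest adjusted p of any of the 10 genes by limma was 0.574, that of Srebf1 in DJ526 against Ctrl.

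The point estimates against Ctrl leaned downward. All 10 genes had a lower mean in RS and in DJ, with medians of -0.43 and -0.39 on the log2 scale, and 9 of 10 in DJ526, with a median of -0.33, where the medians of all features were 0.03, -0.02 and 0.02. These comparisons share the 3 Ctrl mice, so that their directions are not separate evidence, and 1 mouse could carry the value. Without Ctrl 1 the medians came to -1.14 for RS, -1.05 for DJ and -0.95 for DJ526, without RS 1 the median in RS was 0.10, without Ctrl 2 that in DJ was -0.05, and without DJ526 1 that in DJ526 was 0.04. The largest estimates were those of Elovl6, the elongase, at -1.05 in DJ (SE 0.79, 95% confidence interval -2.80 to 0.70) and -1.01 in DJ526 (SE 0.79, -2.75 to 0.74). For Acaca the estimates came to -0.66 for RS, -0.74 for DJ and -0.69 for DJ526 (SE 0.53 each). Scd1 was the gene with a higher mean in DJ526 than in Ctrl, by 0.11 (SE 0.68, -1.39 to 1.60).

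How small a change could be seen differed between the genes. In a comparison of 3 mice with 3, the 95% interval reached 0.59 log2 units to either side for Srebf1 and 1.98 for Pnpla3, with a median of 1.34 over the 10 genes, that is, a factor of 2.53. For 6 mice against 6 the median was 0.95, a factor of 1.93. Every interval of every gene included 0. With 3 mice a side, a change of most of these genes by a factor of 2 was therefore not detectable.

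**Figure D2:**
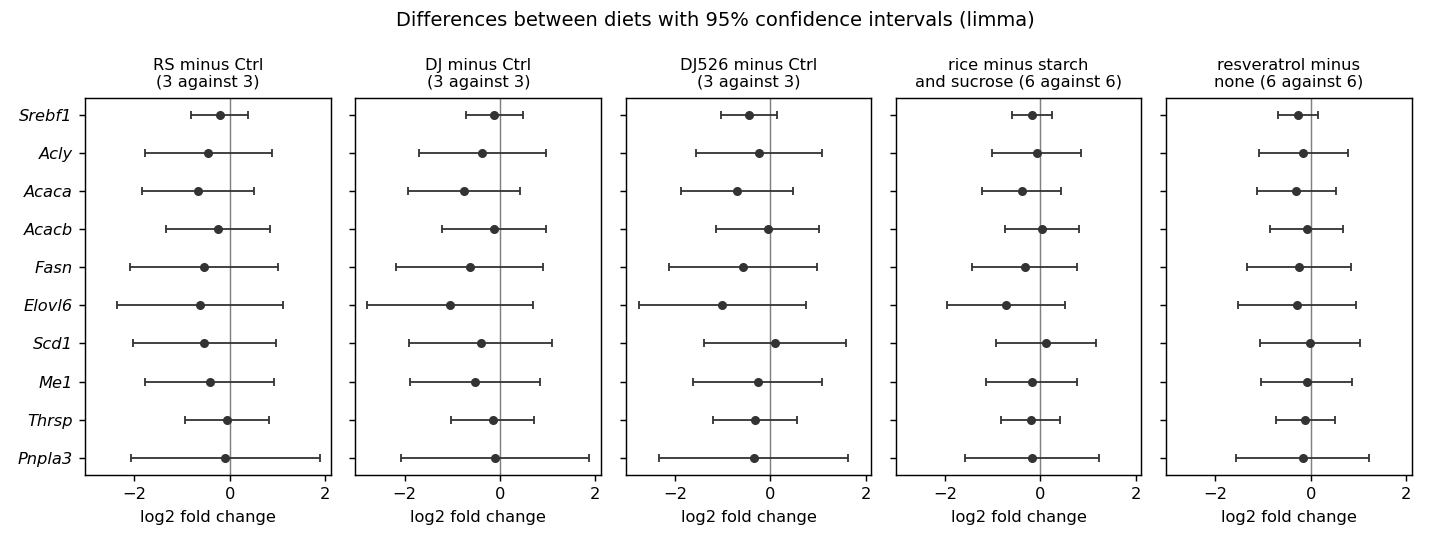
Points are log2 fold changes (x axis) of the 10 genes (y axis) in 5 of the comparisons, and bars their 95% confidence intervals from limma over 3 or 6 mice a side. Every bar crosses 0; the bars are shortest for Srebf1 and longest for Pnpla3.

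In the effect of rice with resveratrol as against plain rice, DJ526 against DJ, 7 genes had a higher and 3 a lower mean, with a median of 0.06 (all features 0.04). Scd1 differed most, by 0.51 (SE 0.68), and Srebf1, Thrsp and Pnpla3 were the 3 with a lower mean. Against RS, DJ526 had 4 genes higher and 6 lower, with a median of -0.03 (all features 0.00). Over both backgrounds, the resveratrol diets had a lower mean for all 10 genes, between -0.30 and -0.01, with a median of -0.16 against 0.03 for all features. For rice against starch and sucrose the median was -0.18 (all features -0.01), from -0.72 for Elovl6 (SE 0.56) to 0.12 for Scd1 (SE 0.48). The resveratrol effect on rice minus that on starch and sucrose had a median of 0.60 (all features 0.01), and its largest value was 1.04 for Scd1 (SE 0.96). Leaving out Ctrl 1 put that median at 1.30, and leaving out RS 1 at 0.06. The other 4 medians of this paragraph moved as well when 1 mouse was left out. For DJ526 against DJ the median was -0.34 without DJ526 2 and 0.41 without DJ526 1, and for DJ526 against RS it was -0.40 without RS 1 and 0.37 without DJ526 1. For the resveratrol diets it was -0.47 without Ctrl 1 and 0.08 without RS 1, and for rice -0.48 without Ctrl 1 and -0.02 without Ctrl 2.

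Srebf1 was the gene that came nearest to a difference. All 3 DJ526 mice (1.24, 1.78 and 1.91) lay below all 3 Ctrl mice (2.02 to 2.21), by 0.45 log2 units on average (SE 0.27, 95% interval -1.04 to 0.15, limma adjusted p = 0.574). By the exact two-sided permutation test p was 0.1, the smallest that 3 against 3 can give. Of all features, 20.8% also failed to overlap in that comparison, so that 1 of 10 genes was not above the background. In the other comparisons no gene of the 10 was without overlap, whereas 10.2% of all features were for RS against Ctrl, 9.39% for DJ against Ctrl, 18.5% for DJ526 against DJ and 11.1% for DJ526 against RS. With 6 mice against 6 the share was only 0.122% for rice against starch and sucrose and 0.544% for the resveratrol diets. Over the 6 mice on resveratrol and the 6 without, Srebf1 differed by -0.27 (SE 0.19, exact two-sided permutation p = 0.210).

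The arrays came on 3 slides that were not balanced over the diets. Slide 1 held the 3 Ctrl mice and DJ 1, slide 2 held DJ 2, DJ 3, RS 1 and RS 2, and slide 3 held RS 3 and the 3 DJ526 mice. Within slide 1, DJ 1 lay below the Ctrl mean for all 10 genes (median -0.72). On slide 2 the DJ mean was above the RS mean for 10 of 10 (median 0.49), and on slide 3 the DJ526 mean was below RS 3 for 10 of 10 (median -0.61). Each of these rests on 1 or 2 mice on at least 1 side, and DJ 1 and RS 1 are 2 of the 4 mice with the lowest lipogenic mean. With the slide as a block, the median was -2.03 for DJ526 against Ctrl, -1.27 for RS against Ctrl and -0.72 for DJ against Ctrl. It was -1.19 for DJ526 against DJ, -0.61 for DJ526 against RS, -1.26 for the resveratrol diets and -0.72 for rice. For the resveratrol effect on rice minus that on starch and sucrose it was 0.12. With this block 0 of the 10 genes were called in any comparison. Ctrl and DJ526 shared no slide, and for them diet and slide are linked only through the few DJ and RS mice.

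Genes with several features gave much the same reading. The 3 features of Acaca correlated at r 0.970 to 0.987 over the 12 mice, the 3 of Me1 at 0.992 to 0.994, the 2 of Acacb at 0.990 and the 2 of Acly at 0.995. For Pnpla3 the 2 features correlated at 0.834, and they had opposite signs in 6 of 8 comparisons, for instance -0.35 and 0.30 for DJ526 against Ctrl. Opposite signs were also found for Acacb in DJ526 against Ctrl (-0.05 and 0.12) and in the resveratrol diets (-0.09 and 0.05), and for Acaca in DJ526 against RS (-0.03 to 0.06), all close to 0.

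The lipogenic genes varied widely between mice of the same diet. The median within-group SD of the 10 genes was 0.87 log2 units, and that of 27285 features well above background on all arrays was 0.19, with 0.44 as the 90th percentile and 0.99 as the 99th. Pnpla3 (1.29), Elovl6 (1.14) and Fasn (1.01) were above the 99th percentile, Scd1 (0.97), Me1 (0.88), Acly (0.86), Acaca (0.76) and Acacb (0.71) above the 97th, and Thrsp (0.56) at percentile 94.6. Srebf1 (0.38) was at percentile 85.2. Of the variance of a gene over the 12 mice, a median of 92.1% lay within diets for the 10 genes, from 78.1% for Srebf1 to 98.5% for Pnpla3, and 71.5% for the features above background. These are descriptions with no test, since the genes were chosen with results of these data known.

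**Figure D3:**
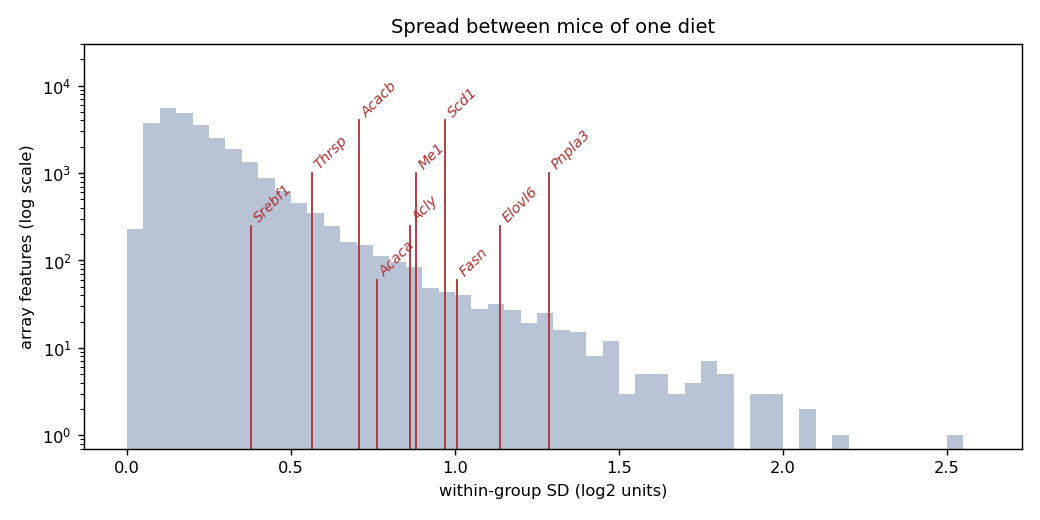
The histogram counts 27285 array features (y axis, log scale) by their SD between mice of the same diet in log2 units (x axis), and red lines mark the 10 genes; line heights only separate the names. All but Srebf1 lie in the far right of the distribution.

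The spread was shared. Of the 45 pairs of genes, 36 had a Pearson r past the threshold (permutation test with 100000 resamples, two-sided, Benjamini-Hochberg over the 45 pairs, n = 12 mice), and 37 a Spearman rho. The 36 were exactly the pairs without Srebf1. Their r ran from 0.609 to 0.982 with a median of 0.872, and their rho from 0.692 to 0.993 with a median of 0.923. The closest pair was Fasn and Acly (r = 0.982, rho = 0.979), the synthase and the enzyme that makes its acetyl-CoA. The loosest of the 36 was Scd1 with Thrsp (r = 0.609, permutation p = 0.0336, adjusted p = 0.0420; rho = 0.692). For each pair, r was also taken without the 2 mice farthest from the median of the pair's first gene, so that the mice left out could differ between pairs. The 36 values of r then lay between 0.642 and 0.979 (median 0.881).

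The relation was present within diets and within slides. On deviations from the diet means the 36 pairs had r between 0.699 and 0.992 (median 0.914), and after diet and slide means were both removed between 0.775 and 0.996 (median 0.945). It was also present without the 4 lowest mice. With these left out, a choice made after seeing the data, the median r of the 36 pairs was 0.840 over 8 mice, and 28 of 45 pairs passed by the exact permutation test.

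Over all 12 mice the 9 pairs with Srebf1 behaved differently. Their r ran from -0.07 with Scd1 to 0.593 with Thrsp (median 0.304), and 0 of 9 passed by Pearson. For Thrsp the rho of 0.622 passed (adjusted p = 0.0425, permutation test) while r did not (adjusted p = 0.0516). On deviations from diet and slide means the 9 values lay between -0.21 and 0.393. Against the mean of the other 9 genes, Srebf1 had r = 0.297, Fasn 0.985, Acly 0.980, Me1 0.970, Acaca 0.962, Elovl6 0.936, Acacb 0.923, Thrsp 0.879, Pnpla3 0.866 and Scd1 0.841. How far Srebf1 stood apart depended on the mice included. Without the 3 mice with high Adipoq described below, left out after seeing the data, 41 of 45 pairs passed. That is more than the 36 pairs without Srebf1, so that some pairs with Srebf1 passed over those 9 mice. Protein, cleavage and activity of SREBP1 were not measured on these arrays.

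**Figure D4:**
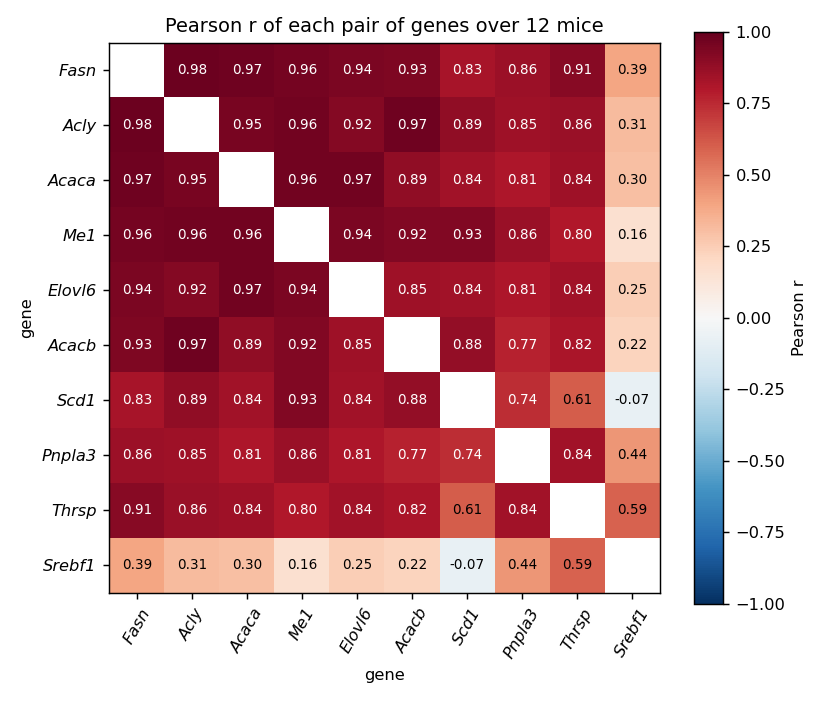
Cells give Pearson r over the 12 mice for each pair of the 10 genes (both axes), from blue (-1) to red (1). The block of 9 genes is at 0.61 or above throughout, and the Srebf1 row lies between -0.07 and 0.59.

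The mean of the 10 centred genes ordered the mice from RS 1 (-0.97), Ctrl 1 (-0.92), DJ526 1 (-0.78), DJ 1 (-0.48) and DJ 3 (-0.35), through DJ526 3 (-0.06) and RS 2 (0.08), to DJ 2 (0.46), DJ526 2 (0.58), RS 3 (0.63), Ctrl 3 (0.78) and Ctrl 2 (1.03). In all 4 diets mouse 1 had the lowest mean. It was the lowest of its diet for 9 of 10 genes in both Ctrl and RS, for 6 in DJ and for all 10 in DJ526. What the numbers of the mice stand for is not given in the labels, and over all features the arrays of the same number did not go together. Both the highest and the second lowest mouse were on the control diet. In Ctrl the median range of a gene was 4.08-fold, in RS 3.39-fold, in DJ 2.00-fold and in DJ526 2.46-fold.

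Transcripts of fat cells differed between the mice. Adipoq, the adipocyte hormone adiponectin, had a signal of 139 in Ctrl 1, 133 in RS 1 and 87.0 in DJ 2, and of 8.87 to 20.8 in the other 9 mice. Cfd, or adipsin, had 917, 467 and 452 in the same 3 and 2.81 to 59.0 in the others. Plin1 (59.0, 34.4 and 24.8) and Retn (242, 156 and 155) were also highest in these mice, above 14.3 and 74.3 in the others. Lep was not, with 17.7 to 21.0 in them and up to 40.3 in the others, and Fabp4 had 3584, 2633 and 2059 in them and 3057 in Ctrl 3. The adipocyte list (Adipoq, Lep, Plin1, Cfd, Retn and Fabp4) had 3 of 6 genes well above background on all 12 arrays, none at background on every array, and a summed level of 1.25 to 2.35 in Ctrl, 0.72 to 1.73 in RS, 0.95 to 1.59 in DJ and 0.77 to 1.04 in DJ526. That sum is carried mostly by Fabp4, whose signal ran from 1440 to 3584 over the 12 arrays. Of the 3 mice with high Adipoq, Ctrl 1 and RS 1 had the lowest lipogenic means and DJ 2 one of the 5 highest. The part of fat cell RNA in the lipogenic levels was not tested. Without the 3 mice, left out after seeing the data, 41 of 45 pairs passed by the exact permutation test over 9 mice, and the median r of the 36 pairs was 0.883. Without them the median for DJ against Ctrl was -1.43, with 0 genes called. Of the bile duct markers, Krt19 read 0.60 in Ctrl 2, the mouse with the highest lipogenic mean, and -2.71 to -1.81 in the others. Krt7, Epcam and Sox9 were also highest in Ctrl 2, and Spp1 was not. Their link to the lipogenic levels was not tested. In bulk tissue, fewer cells of a type and less RNA per cell cannot be told apart.

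Genes around the route went along to very different degrees, described by r with the lipogenic mean over the 12 mice and with no p. Over 15562 genes well above background the median r was 0.01, and 1.07% were above 0.8. Of the genes that supply carbon and NADPH, 6 of 21 were above 0.8, with a median of 0.697. G6pdx, the first enzyme of the pentose phosphate route, had r = 0.901 and varied 10.3-fold, and Pgd, the next NADPH-forming enzyme, had 0.898. Acss2, which makes acetyl-CoA from acetate, had 0.851 and varied 9.18-fold. Slc25a1, the citrate carrier, had 0.870, Pklr, liver pyruvate kinase, 0.851 and Tkt 0.829.

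The cholesterol arm, which SREBP2 chiefly drives, had the highest median of the 7 lists. Of its 8 genes 7 were above 0.8 (median 0.854), led by Lss (0.912) and followed by the squalene epoxidase Sqle, which read 1.64, 4.46 and 4.52 in Ctrl, 2.08, 3.56 and 4.65 in RS, 3.63, 3.98 and 3.72 in DJ and 2.86, 4.50 and 3.92 in DJ526. Among elongases, desaturases and activating enzymes the median of 14 genes was 0.623, from -0.59 for Acsl1 to 0.918 for Acsl5. Triglyceride synthesis had a median of 0.264 over 9 genes, with Gpam, the first acyltransferase, at 0.884 and Dgat2 at 0.441.

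Regulators stood lower as a list, with a median of 0.175 over 16 of the 17, Arntl being without a value on 1 array. Scap, the escort of the SREBPs, had 0.888, Mlxipl, which encodes ChREBP, 0.486, and Nr1h3, which encodes LXR alpha, -0.32. The list of the feeding and fasting response had a median of 0.07 over 12 genes. Lpin1 was highest at 0.765, with Cpt1a at -0.55 and Pck1, the gluconeogenic enzyme, at -0.05. The clock list had a median of -0.09 over 10 of 12 genes, and none of these was beyond 0.41 in either direction, although Dbp varied 9.10-fold and Nr1d1 10.9-fold between the mice.

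**Figure D5:**
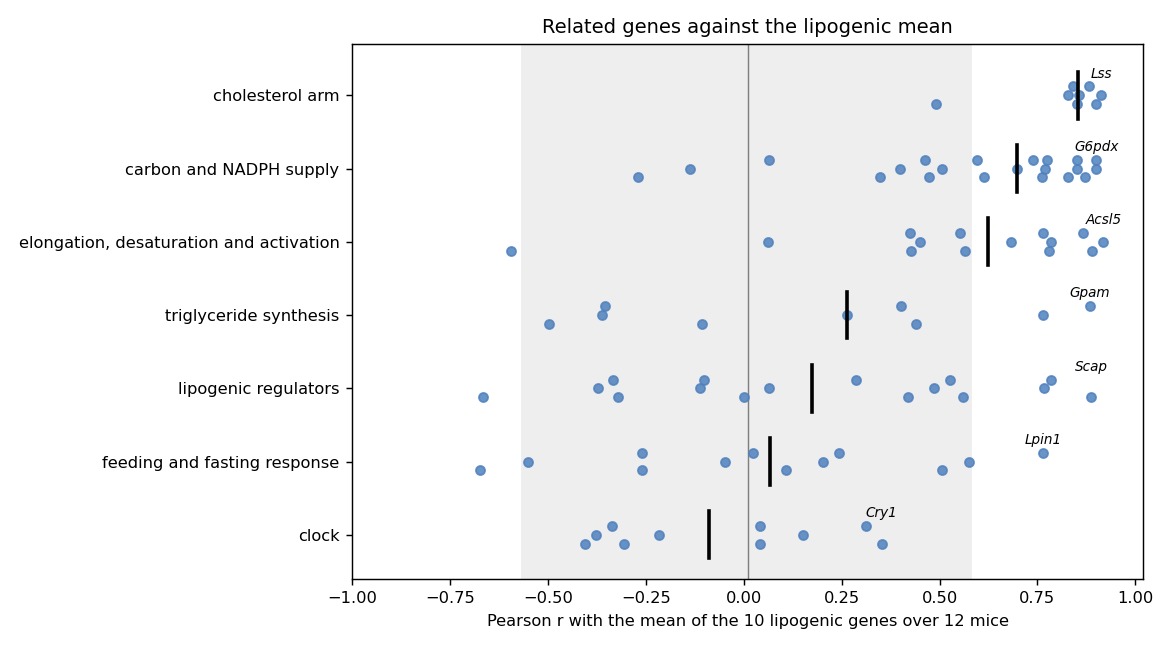
Each point is a gene, placed by its Pearson r with the mean of the 10 lipogenic genes over 12 mice (x axis) in its list (y axis); black bars are list medians, the gray band spans the 5th to 95th percentile of 15562 genes and the gray line their median, and the names are the highest gene of each list. The cholesterol arm lies almost wholly to the right of the band, and the clock list within it.

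By limma with adjustment over all features, 0 genes of the 7 lists were called in any of the 8 comparisons, in either direction. Some did not overlap between 2 diets, each with an exact permutation p of 0.1, the smallest possible with 3 mice against 3, and with adjusted p by limma from 0.176 upward. Of all features, 9.39% to 20.8% also did not overlap in these comparisons. At most 3 genes per list and comparison are named, so that the lists cannot be read against that share. Against Ctrl, the DJ mean was lower by 0.61 log2 units for Mid1ip1, a partner of Thrsp (SE 0.17), by 0.20 for the dehydratase Hacd3 and by 1.03 for the clock gene Per2 (SE 0.17). Nr1h2 was higher by 0.13. DJ526 against Ctrl gave differences of -0.34 for Mid1ip1, -0.28 for Mlxipl and -0.21 for Nr1h3 among the regulators, -0.20 for Pcx and -0.17 for Pgls in carbon supply, -1.63 for Elovl3 and -0.26 for Hacd3, -0.59 for Agpat2 and -0.19 for Dgat1, and 0.22 for Pck1. Between RS and Ctrl, Pgls (-0.08) and Hacd3 (-0.16) did not overlap.

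DJ526 against DJ gave -0.16 for Nr1h3, 0.25 for Elovl2 and -0.19 for Elovl1, -1.26 for Mogat1, -0.46 for Agpat2 and -0.25 for Agpat3. In the same comparison Per2, Per3 and Tef differed by 0.79, 0.64 and 0.40. For DJ526 against RS the values were -0.11 for Pcx and 0.74 for Nr1d1. The share of all features without overlap in these comparisons is that given with Srebf1.

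Of all 15562 genes, 31 (0.199%) had r above 0.9 with the lipogenic mean. That count includes genes that make up the mean and list genes such as Acsl5, Lss and G6pdx. Another 2 had r below -0.9, Alkbh2 (-0.94) and Flvcr2 (-0.92), which were named after their values were seen. With the 10 lipogenic genes set aside, the 10 highest were Selenok-ps1 (0.965), Selenok (0.953), Ppox (0.951), Eya4 (0.943), Il11ra1 (0.940), Celsr1 (0.937), Pnpla5 (0.935), Haus7 (0.930), Napa (0.929) and Tmem135 (0.929). The features of Selenok and its pseudogene Selenok-ps1 may read the same transcript. Pnpla5, which belongs to the same protein family as Pnpla3, varied 21.6-fold over the 12 mice, while Selenok varied 1.39-fold and Napa 1.31-fold, so that closeness of pattern did not go with size of change.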

How the data were processed

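Liver RNA of 12 mice was hybridized to 12 one-colour arrays. The labels name Trizol for the extraction, the methods a column kit. The authors deposited, per array, the signal intensity of 44397 spots on a linear scale, with background subtracted by Feature Extraction (version 11.5.1.1), and a table of globally normalized intensity, which is that signal times 1 factor per array (0.959 to 1.08). Mice were grouped by the labels.

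Spots of a feature were averaged without outlier flags (93 to 197 spots per array), and each array was scaled by its 75th percentile on the log2 scale. Of 39429 features, 27502 (69.8%) were named through RefSeq accessions. A gene was read by its brightest feature. limma (version 3.58.1, R 4.3.3) fitted 1 mean per diet over all 12 arrays with a variance trend (8 residual degrees of freedom) and Benjamini-Hochberg adjustment over all features. Correlations used permutation tests (numpy 2.4.6, scipy 1.17.1). The fit was tested on simulated data. Precision is limited by the number of arrays.

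The 10 genes, the lists and the tests were chosen with earlier results of these data known. Named are the 10 genes, up to 3 genes per list and comparison without overlap between groups, and the 10 genes most like the lipogenic mean; other list genes were picked as examples after their values were seen. Alternatives were other background corrections, scalings, filters and tests, slide and replicate blocks, DJ exchanged with RS (a supplementary table lists their array identifiers the other way round), and each mouse left out in turn. The authors' t-test, SAM and Z ratios were not used for the main results. Some items are not reported here.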

Additional observations from a re-analysis of the deposited data

How the results depend on the processing

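Of the 29 alternative settings, some were run for the covariation only. In all those that compared diets, 0 of the 10 genes were called in any comparison run. The lowest adjusted p there by limma or the methods' t-test was 0.339. The median log2 fold change of the 10 genes moved by more than the spread between mice in 4 instances. With the slide as a block it was -2.03 for DJ526 against Ctrl, -1.19 for DJ526 against DJ and -1.26 for the resveratrol diets, and without the 3 arrays with high Adipoq, left out after seeing the data, it was -1.43 for DJ against Ctrl. The cause was not tested.

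The labels number the mice 1 to 3 in every diet. The deviations of arrays with the same number correlated at -0.27 to 0.26 over all features (4 of 18 pairs over 0.1, and 5 of 12 arrays closest to their own number), so that the numbers were not taken to pair the mice. With the number as a block the 10 genes again had 0 calls, and calls over all features went from 2, 4 and 3 to 0 for DJ526 against Ctrl, DJ and RS.

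Of the 45 pairs of genes 35 to 37 passed under other scalings, with flagged spots kept, with the mean of all features of a gene and with each mouse left out, against 28 without the 4 lowest arrays and 41 without those with high Adipoq. They were not counted under normexp, which left only 6 arrays with a value for every gene. Calls over all features for DJ526 against Ctrl, DJ and RS were 9, 27 and 3 under quantile normalization, 4, 14 and 8 with a filter on dim features, 0, 11 and 1 without the variance trend, and 0, 4 and 40 with the slide as a block. They were 166, 107 and 28 without RS 3, 0, 23 and 15 without DJ 1 and 8, 7 and 7 without RS 1, and at most 2 with any other mouse left out. The t-test and the fit to the groups compared were not run for the difference between effects.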

Other observations

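Ratios between 2 of the 10 genes cancel what they share. The ratios of the 45 pairs were compared for rice against starch and sucrose and for the resveratrol diets, 90 tests in all. These comparisons were made after the shared spread had been seen. The lowest p belonged to Scd1 over Elovl6, desaturase over elongase. Its log2 ratio was 2.51 ± 0.54 in the 6 mice on rice and 1.68 ± 0.14 in the 6 on starch and sucrose (SD, n = 6), a difference of 0.83 with an exact two-sided permutation p of 0.00649, which came to 0.455 after Benjamini-Hochberg adjustment over the 90. It did not pass.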
